A study of Mus with 5 samples.

Results

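The 9 genes described here are markers of S phase and mitosis, the parts of the cell cycle in which a cell copies its DNA and then divides. They were taken by identifier, as a fixed list (*Mcm2*, *Pcna*, *Mki67*, *Top2a*, *Ccna2*, *Cdk1*, *Ccnb1*, *Plk1* and *Aurkb*), and all 9 were found among the 12857 genes with values. RNA was analysed from E14.5 hearts, atria removed, that is ventricles with valves, of embryos that were either WT or Nkx2.5Cre/+;Bmp2tg/+, the latter called transgenic. In the transgenic hearts Cre made from the Nkx2.5 locus, which is active in myocardial precursors, removes a stop cassette, and a CAG promoter in the Rosa26 locus then drives *Bmp2* followed by an IRES and eGFP; the line came from 1 clone of embryonic stem cells. The hearts of 12 embryos per genotype had been pooled, 4 to a pool, and values cover 3 transgenic pools and the 2 WT pools that the authors kept. In the cross for which the study gives genotypes, Nkx2.5Cre/Cre females with Bmp2tg/+ males, embryos without the transgene are Nkx2.5Cre/+. The labels call the control pools WT, and from which cross they came is not given in the sources used here. If they lack Cre, effects of the Cre allele and of the transgene cannot be told apart.

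In a dividing cell these genes are switched on in waves. Genes of DNA replication rise as the cell enters S phase, cyclin A2 rises during S phase, and the kinases and cyclins of mitosis peak in G2 and M, after which many of their proteins are destroyed. Cardiomyocytes of the fetal ventricle still divide, most of all in the compact layer under the epicardium, and leave the cell cycle around birth. The study measured proliferation by BrdU labelling of heart sections. At an earlier stage it reports a rise in atrioventricular valve mesenchyme, right ventricular myocardium and ventricular endocardium, but not in aortic or pulmonary valves. At E14.5, the stage used here, it describes the rise as sustained but less pronounced. The study also counted more cells in trabecular myocardium and in the atrioventricular canal region at E14.5. From the same libraries it reports that many changed genes belong to cell growth and proliferation, with *n-Myc*, *Hey2* and *Id2* upregulated. The question here is whether transcripts of cell cycle genes in RNA of the whole tissue differ between the genotypes. In such RNA, fewer cycling cells and less RNA per cycling cell cannot be told apart.

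Depth was similar over the pools, with 7427905 to 10564780 reads recovered from the deposited values, and the members had between 314 and 6384 reads in a pool. A count of 0 allows up to 3 reads, or 0.287 to 0.402 CPM, a limit for counting error only; no member came near it. *Bmp2* (ENSMUSG00000027358) checked the genotypes: it measured 23.0, 27.1 and 23.3 CPM in transgenic hearts, against 14.1 and 10.2 CPM in WT hearts, a rise of 0.99 ± 0.13 (SE) on the log2 scale with a limma adjusted p of 0.000712. As a check of the tissue, *Ryr2*, the calcium release channel of cardiomyocytes, was at 425 to 556 CPM over the 5 pools. It was the only gene of the 12 cardiomyocyte markers listed whose identifier is paired with a symbol.

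None of the 9 genes differed between the genotypes at a limma adjusted p of 0.05 (0 of 9, with adjusted p-values from 0.237 to 0.869), a threshold that 2.82% of all genes passed. The mean was higher in transgenic hearts for 8 of the 9, against 51.2% of all genes, and by little: the log2 fold changes ran from -0.028 for *Mcm2* to 0.17 for *Aurkb*, with a median of 0.087, where the median of all genes was 0.0045. For *Mki67*, *Ccnb1* and *Plk1* (3 of 9) all transgenic pools lay above both WT pools, which held for 17.7% of all genes. Without adjustment, 1 of the 9, *Ccnb1*, had a limma p under 0.05 and was higher, as 8.30% of all genes were. edgeR's quasi-likelihood test, edgeR's exact test and DESeq2 on the recovered reads also called 0 of 9, while they called 3.10%, 3.75% and 3.64% of the genes tested. The genes tested were all 12857 for edgeR, but for DESeq2 only the 6376 to which it gave an adjusted p. Of the 9, the unadjusted p of these tests was under 0.05 for 1, 1 and 0.

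The 95% intervals of the limma fit, not adjusted for the number of genes, give a range for each change in RNA of the whole tissue. They do not bound a change confined to some of its cells. The upper end of the 95% interval of the log2 fold change was lowest for *Mcm2*, at 0.11, and highest for *Aurkb*, at 0.34, which is a fold change of 1.27. The standard errors of the members, 0.056 to 0.082, were below the median of all genes, 0.094. An exact permutation test of 3 against 2 pools, made two-sided by doubling the smaller tail, cannot give a p under 0.2 for any gene. The limma p-values and intervals therefore rest on the spread that limma estimates over all genes.

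**Figure D1:**
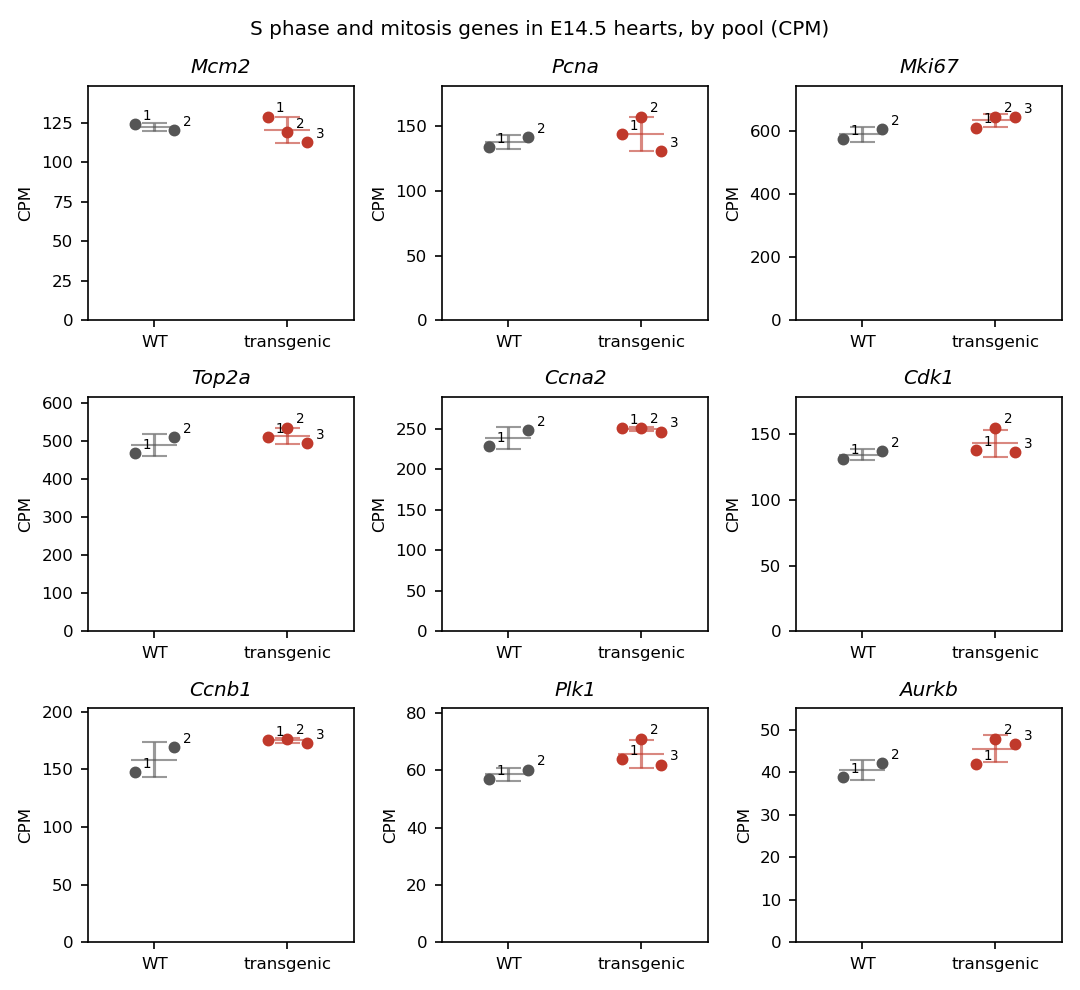
CPM of each gene (vertical axis, from 0) in the 2 WT pools (grey) and the 3 transgenic pools (red); each numbered point is a pool, and the bar is the mean with its SD. All transgenic points lie above both WT points for *Mki67*, *Ccnb1* and *Plk1*, and the groups overlap for the other 6 genes.

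Among the replication genes, *Mcm2* (ENSMUSG00000002870, chromosome 6 of GRCm38.p6, 88883474 to 88898780) encodes a subunit of the helicase that is loaded on DNA before S phase and unwinds it at the fork. It measured 129, 119 and 113 CPM in transgenic pools 1, 2 and 3, against 124 and 121 CPM in WT pools 1 and 2, the order in which values are given throughout. The WT values lay inside the range of the transgenic values, which held both the highest and the lowest pool. The means were 120.2 ± 8.24 CPM (SD, n = 3) and 122.4 ± 2.54 CPM (SD, n = 2). *Mcm2* was the only member with a lower mean in transgenic hearts, by less than the spread between transgenic pools, with a log2 fold change of -0.028 (95% interval -0.17 to 0.11, limma adjusted p = 0.869).

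*Pcna* (ENSMUSG00000027342, chromosome 2, 132249286 to 132253180) encodes the ring-shaped clamp that holds DNA polymerases on the template. It had values of 144, 157 and 131 CPM in transgenic tissue and of 134 and 142 CPM in WT tissue. Transgenic pool 2 was the highest and transgenic pool 3 the lowest of all, so the groups overlapped. The log2 fold change was 0.061 (95% interval -0.091 to 0.21, limma adjusted p = 0.708). The spread of *Pcna* between transgenic pools was well over counting error, with a chi-square of the reads of 10.5 per degree of freedom, where counting error alone gives about 1. Those reads are estimates by RSEM, which divides reads among similar genes. How much of the spread comes from that division was not tested.

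A copy of *Pcna* that RefSeq lists as a pseudogene, *Pcna-ps2* (ENSMUSG00000067608, chromosome 19 of GRCm38, 9283238 to 9284494), had its own values in the same table. It measured 69.3, 76.8 and 67.3 CPM in transgenic hearts, against 50.9 and 56.6 CPM in WT hearts. Every transgenic pool lay above both WT pools, and *Pcna-ps2* rose by 0.40 on the log2 scale, with an SE of 0.077 and a limma adjusted p of 0.00906. That call was lost without WT pool 1 or WT pool 2 (limma adjusted p = 0.225 and 0.0635). The study lists this copy as upregulated in the same libraries, so the rise is not independent evidence. RSEM divides reads that match the gene and its copy between them, and which of the 2 a read came from is uncertain.

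With *Pcna* and *Pcna-ps2* added together, the sum was 213, 234 and 198.0 CPM in transgenic hearts, against 185 and 198.2 CPM in WT hearts. Transgenic pool 3 and WT pool 2 were almost equal, so the sums overlapped between the genotypes. The sum had a log2 fold change of 0.17 (95% interval 0.021 to 0.31), more than *Pcna* alone, and was not called (limma adjusted p = 0.211, unadjusted p = 0.0272). The copy took 32.5%, 32.8% and 34.0% of the sum in transgenic hearts, against 27.5% and 28.5% in WT hearts, so the share of the copy did not overlap between the groups. RefSeq also names a copy of *Ccnb1*, *Ccnb1-ps*, whose identifier is not paired with a symbol here, and *Ccnb1* may share reads in the same way.

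**Figure D2:**
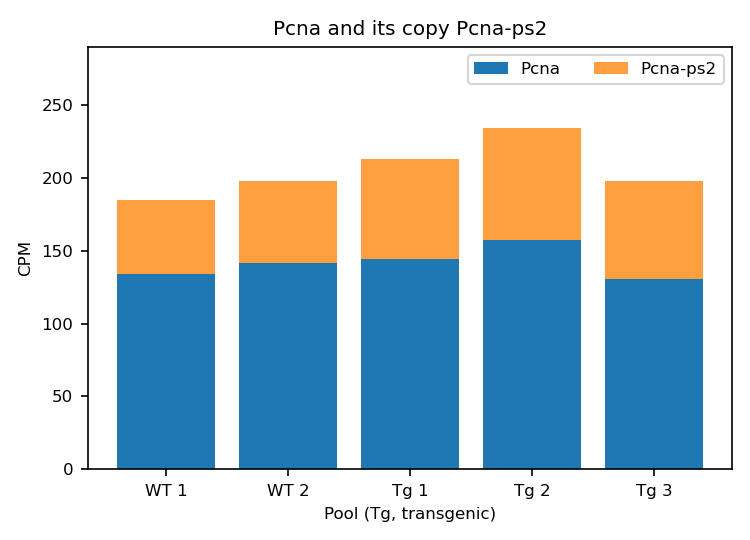
CPM of *Pcna* (blue) and of its copy *Pcna-ps2* (orange) stacked for each pool, from 0. The orange part is larger in every transgenic pool (67.3 to 76.8 CPM) than in the WT pools (50.9 and 56.6 CPM), while the blue part overlaps.

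Next come the genes that are on from S phase through mitosis. *Mki67* (ENSMUSG00000031004, chromosome 7, 135689784 to 135716450) encodes Ki-67, the nuclear protein by which cycling cells are stained. It measured 611, 645 and 643 CPM in transgenic hearts, against 573 and 606 CPM in WT hearts. The groups did not overlap, but transgenic pool 1 and WT pool 2 were closer to each other than the WT pools were. The means were 633 ± 19.5 CPM (SD, n = 3) and 589 ± 23.1 CPM (SD, n = 2). The log2 fold change was 0.10 (95% interval -0.016 to 0.22, limma adjusted p = 0.353).

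*Top2a* (ENSMUSG00000020914, chromosome 11, 98992947 to 99024199) encodes the topoisomerase that untangles replicated chromosomes before they separate. It had values of 511, 535 and 494 CPM in transgenic tissue and of 468 and 509 CPM in WT tissue. WT pool 2 lay above transgenic pool 3, and the log2 fold change was 0.072 (95% interval -0.053 to 0.20, limma adjusted p = 0.561). The WT pools differed from each other by more than the means of the genotypes did, with SDs of 28.8 CPM in WT and 20.4 CPM in transgenic hearts.

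*Ccna2* (ENSMUSG00000027715, chromosome 3, 36564865 to 36573038) encodes cyclin A2, the partner of Cdk2 in S phase and of Cdk1 as mitosis begins. It measured 251.0, 251.3 and 246 CPM in transgenic hearts, against 229 and 248 CPM in WT hearts. The transgenic values were tight, with an SD of 2.72 CPM, and WT pool 2 fell among them while WT pool 1 lay lower. The log2 fold change was 0.067 (95% interval -0.051 to 0.19, limma adjusted p = 0.565).

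The other 4 genes act at mitosis. *Cdk1* (ENSMUSG00000019942, chromosome 10, 69335146 to 69352912) encodes the kinase that starts mitosis once cyclin B1 is bound. It had values of 138, 155 and 136 CPM in transgenic tissue and of 132 and 137.5 CPM in WT tissue. Transgenic pool 2 stood above the rest, and the other transgenic pools lay beside WT pool 2. The log2 fold change was 0.087 (95% interval -0.052 to 0.23, limma adjusted p = 0.518).

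*Ccnb1* (ENSMUSG00000041431, chromosome 13, 100778739 to 100786486) encodes that cyclin B1. It measured 175.6, 176.6 and 172.8 CPM in transgenic hearts, against 147 and 169 CPM in WT hearts. The groups did not overlap, yet the step from WT pool 2 to the lowest transgenic pool was smaller than that between the WT pools. Its means were 175.0 ± 1.96 CPM (SD, n = 3) and 158 ± 15.5 CPM (SD, n = 2). *Ccnb1* was the only member whose 95% interval did not include 0: the log2 fold change was 0.15, the interval 0.012 to 0.28, and the limma adjusted p 0.237.

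*Plk1* (ENSMUSG00000030867, chromosome 7, 122159435 to 122169884) encodes a kinase of spindle assembly and of entry into mitosis. It had values of 63.7, 71.0 and 61.9 CPM in transgenic tissue and of 57.0 and 60.2 CPM in WT tissue. The groups did not overlap, with transgenic pool 2 again the highest. The log2 fold change was 0.16 (95% interval -0.000235 to 0.32, limma adjusted p = 0.283).

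*Aurkb* (ENSMUSG00000020897, chromosome 11, 69045624 to 69051664) encodes Aurora B, the kinase of the chromosomal passenger complex, which corrects faulty spindle attachments. It measured 42.0, 47.9 and 46.6 CPM in transgenic hearts, against 38.9 and 42.1 CPM in WT hearts. Transgenic pool 1 and WT pool 2 were almost equal, and the other transgenic pools were higher. *Aurkb* had the fewest reads of the members, 314 to 446. Counting error alone gave its lowest count, 314 reads in WT pool 2, an error of 5.64%. It also had the largest log2 fold change of the members, 0.17, with the widest interval (-0.0097 to 0.34, limma adjusted p = 0.310).

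**Figure D3:**
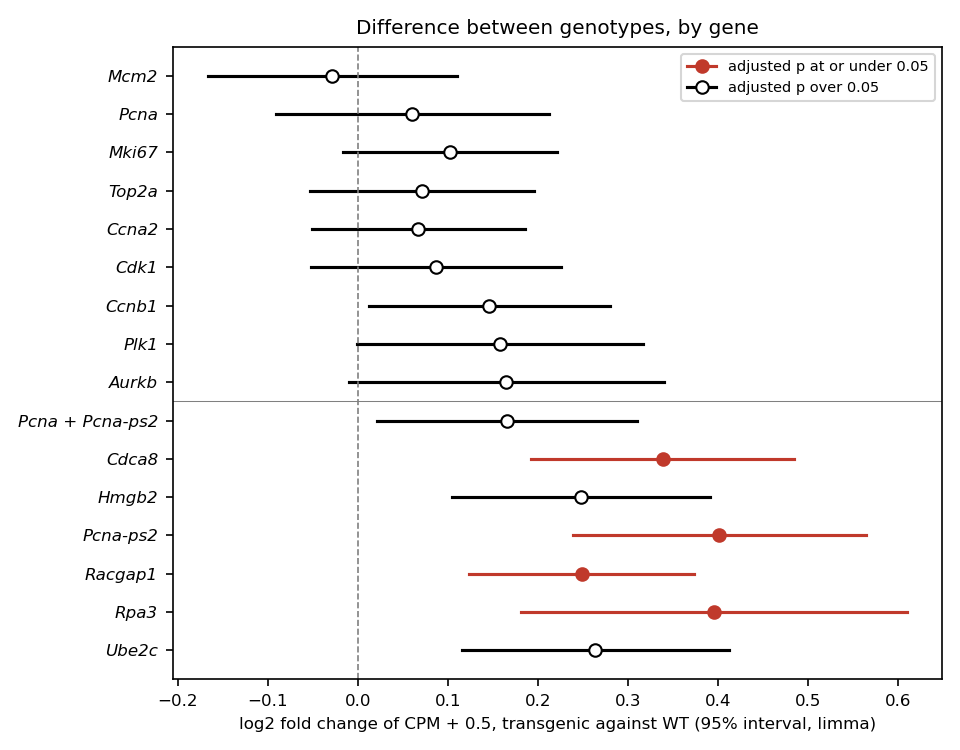
Log2 fold change of CPM + 0.5 in transgenic against WT hearts (points) with its 95% interval (lines), for the 9 members above the grey line and for the sum of *Pcna* and its copy and 6 other genes below it; red marks a limma adjusted p at or under 0.05. No member is red, and the upper ends of their intervals run from 0.11 to 0.34.

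Most members shared the same highest and lowest pools. Transgenic pool 2 was the highest of the 5 pools for 8 of the 9 genes (all but *Mcm2*), against 24.3% of all genes. WT pool 1 was the lowest for 7 of the 9 (all but *Mcm2* and *Pcna*), against 21.0% of all genes. The 9 genes summed to 2065, 2158 and 2045 CPM in transgenic hearts, against 1903 and 2035 CPM in WT hearts. WT pool 2 thus lay almost level with transgenic pool 3, and WT pool 1 was the lowest. WT pool 2 was above WT pool 1 for 8 of the 9, against 49.7% of all genes. These genes are not independent of each other, since the same cells express them.

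**Figure D4:**
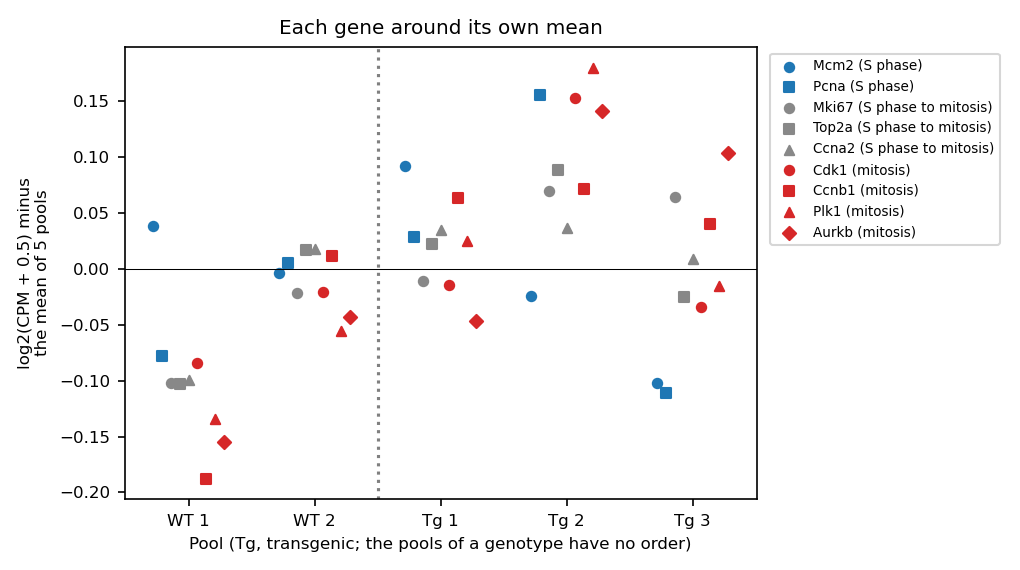
Log2(CPM + 0.5) of each gene minus its own mean over the 5 pools (vertical axis), by pool; blue marks S phase genes, grey those of S phase to mitosis and red those of mitosis. WT pool 1 holds the lowest points and transgenic pool 2 the highest for most genes, and *Mcm2* and *Pcna* are low in transgenic pool 3.

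The replication genes did not follow the others in transgenic pool 3, where *Mcm2* and *Pcna* were at their lowest. Taken within each pool, which removes the scaling of libraries, the geometric mean of the 4 mitosis genes was 0.658, 0.718 and 0.748 of that of *Mcm2* and *Pcna* in transgenic pools 1, 2 and 3, and 0.628 and 0.670 in the WT pools. Transgenic pool 1 lay between the WT pools, so this ratio overlapped between the groups. The ratio of *Ccnb1* to *Mcm2* overlapped too, at 1.36, 1.48 and 1.53 in transgenic hearts, against 1.19 and 1.40 in WT hearts. These are ratios of CPM without correction for gene length, so only their differences between pools can be read.

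The size of the small differences depended on which WT pool was kept. With 2 WT pools, leaving out either shifts a log2 fold change equally in opposite directions. Such fits restate the gap between the WT pools and cannot tell which of them is unusual. Without WT pool 1, the log2 fold change of *Ccnb1* was 0.047 and that of *Mki67* 0.063, and those of *Top2a* and *Ccna2* were 0.011 and 0.0087. Without WT pool 2 the same 4 values were 0.25, 0.14, 0.13 and 0.13. *Plk1* and *Aurkb* kept log2 fold changes of 0.10 to 0.20 and 0.11 to 0.22 over the 5 fits with a pool left out. *Mcm2* was at -0.080 to 0.017 and *Pcna* at -0.0048 to 0.13 over the same fits, so both changed sign. No member was called in any of these fits.

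**Figure D5:**
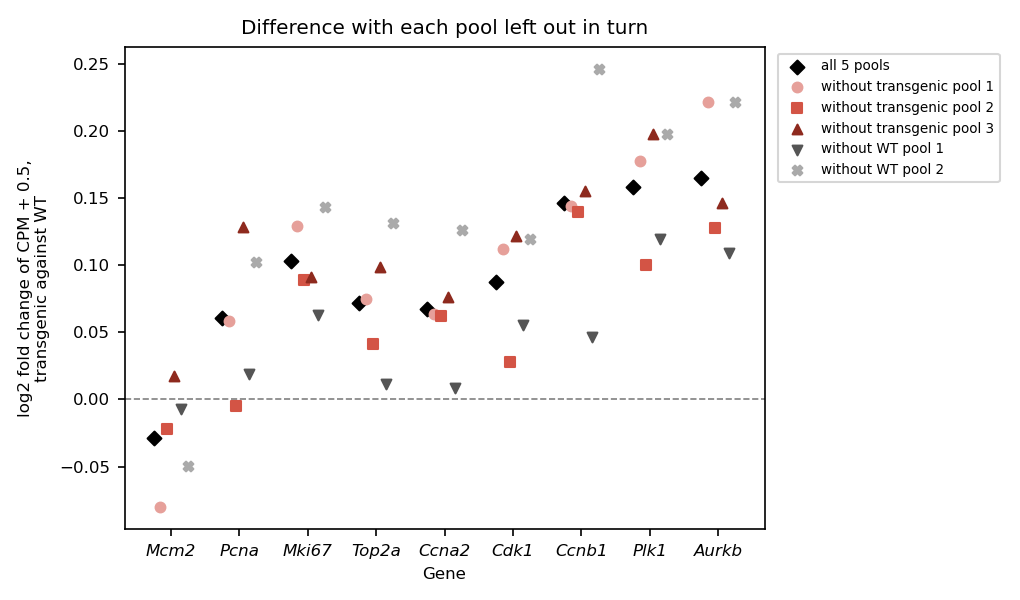
Log2 fold change of each gene in the fit of 5 pools (black diamonds) and in the fits that omit a pool (other symbols). The grey inverted triangles, without WT pool 1, lie nearest to 0 for *Mki67*, *Top2a*, *Ccna2* and *Ccnb1*, at 0.0087 to 0.063. They also lie nearest to 0 for *Aurkb*, at 0.11, and for *Mcm2*, at -0.0072. The values of *Mcm2* and *Pcna* fall on both sides of 0.

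Other genes of the same pathways could be named only where the supplementary gene list of the study pairs them with an identifier: 1 of the 40 other replication genes listed and 4 of the 40 other mitosis genes. The study lists all 5 as upregulated in these libraries, so neither their direction nor the counts of them given here are independent evidence. Counts over lists this incomplete also say nothing of replication or mitosis genes as a whole. All 5 were higher in every transgenic pool than in both WT pools, which held for 17.7% of all genes. limma called 3 of the 5, against 2.82% of all genes: 1 of 1 replication gene and 2 of 4 mitosis genes. *Rpa3* (ENSMUSG00000012483), a subunit of the complex that coats single-stranded DNA at the fork, had values of 25.0, 28.5 and 27.1 CPM in transgenic tissue and of 19.1 and 21.4 CPM in WT tissue. It rose by 0.40 on the log2 scale, with an SE of 0.10 and a limma adjusted p of 0.0470. The call of *Rpa3* was lost in each of the 5 fits that omit a pool (limma adjusted p from 0.0505 to 0.328).

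*Cdca8* (ENSMUSG00000028873) encodes borealin, which sits in the passenger complex beside the Aurora B kinase made from *Aurkb*. It measured 82.1, 85.2 and 77.5 CPM in transgenic hearts, against 61.8 and 67.0 CPM in WT hearts, and rose by 0.34 on the log2 scale, with an SE of 0.069 and a limma adjusted p of 0.0135. Without WT pool 1 or WT pool 2 it was not called (limma adjusted p = 0.239 and 0.0916). The log2 fold change of *Aurkb*, 0.17, was smaller, and the difference between these 2 genes was not tested. *Racgap1* (ENSMUSG00000023015), a protein of the central spindle that is needed for the cell to divide, had values of 180, 179 and 171 CPM in transgenic tissue and of 143 and 155 CPM in WT tissue. It rose by 0.25 (SE 0.059, limma adjusted p = 0.0311), a call lost without transgenic pool 1 or 2 or either WT pool (limma adjusted p from 0.0666 to 0.331).

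The other mitosis genes with an identifier were near the threshold. *Ube2c* (ENSMUSG00000001403), the ubiquitin-conjugating enzyme that works with the anaphase-promoting complex, measured 111, 120.2 and 102 CPM in transgenic hearts, against 94.3 and 90.6 CPM in WT hearts (log2 fold change 0.26, limma adjusted p = 0.0542). Without transgenic pool 3, which had the lowest transgenic value, it was called (limma adjusted p = 0.0177), and in the other 4 fits that omit a pool it was not (0.101 to 0.363). *Hmgb2* (ENSMUSG00000054717), a chromatin protein abundant in dividing cells, was at 273, 319 and 286 CPM and at 235 and 257 CPM (log2 fold change 0.25, limma adjusted p = 0.0600). It was called without transgenic pool 1 (limma adjusted p = 0.0379) and not in the other 4 such fits (0.0654 to 0.442). Without the variance trend of limma, under which 10 of all genes were called, *Rpa3*, *Cdca8*, *Racgap1* and *Pcna-ps2* were not called (limma adjusted p from 0.183 to 0.254). *Bmp2*, the check of the genotypes, was not called in that fit either (limma adjusted p = 0.143). As with the members, transgenic pool 2 was the highest for *Rpa3*, *Cdca8*, *Ube2c* and *Hmgb2*.

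The named genes whose values ran most like the mean profile of the members were *Phldb2*, *Anp32b* and *Zc3h11a*. Likeness was measured over the 5 pools as the root mean square difference of centred log2 values among 405 genes with a symbol, all of them picked by the study as changed, and it was 0.057, 0.059 and 0.067. Among the members this distance ran from 0.015 for *Top2a* to 0.098 for *Mcm2*. *Anp32b*, a histone chaperone, had values of 225, 229 and 219 CPM in transgenic tissue and of 189 and 199 CPM in WT tissue, with a log2 fold change of 0.21 (limma adjusted p = 0.0556).

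Markers of cell types could be named only where the study lists them as changed in the same libraries. Markers that did not move could therefore not appear here. Counts of calls among them, beside 2.82% of all genes called, say nothing of a cell type as a whole. Their part in the members' values was not tested. Of the 8 markers of endothelium and endocardium listed, 3 had an identifier, *Kdr*, *Tie1* and *Cdh5*. They summed to 426 to 506 CPM in transgenic pools and 590.2 to 603 CPM in WT pools, and limma called 2 of 3, both lower. *Ryr2* fell by 0.28 on the log2 scale (limma adjusted p = 0.0175). Of the smooth muscle and pericyte markers 3 of 5 had an identifier, *Myh11*, *Rgs5* and *Pdgfrb*, with sums of 138 to 157 CPM in transgenic and 185 to 188 CPM in WT pools, and 2 of 3 were called, both lower. The epicardial marker *Tbx18* (1 of 5) was higher, at 86.2 to 88.1 CPM against 65.3 and 69.7 CPM (limma adjusted p = 0.00476). *Dcn* (1 of 7 markers of valve mesenchyme and fibroblasts) was at 162 to 177 CPM in transgenic and 185 and 205 CPM in WT pools, and was not called (limma adjusted p = 0.0736). The 8 markers of red cells and the 4 of macrophages, other cells that may cycle, were not analysed here.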

How the data were processed

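RNA of E14.5 hearts without atria was analysed in 3 transgenic and 2 WT pools. The authors removed adaptors with cutadapt, estimated gene abundance with RSEM against Ensembl genes of GRCm38, excluded 1 WT pool for its clustering, and deposited values as counts per 1000000 reads (CPM) of a scaled library size for 12857 genes. RSEM shares reads among similar genes, so values of genes with near-identical copies are uncertain. The table was read by pool name, and 0 columns were left unused. In every pool 100% of values were whole multiples of the worth of 1 read (within 0.001 of a read). This gave back the counts that are called reads here. They are estimates by RSEM and not direct counts of reads.

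Values were compared as log2(CPM + 0.5), transgenic against WT, with limma 3.58.1 in R 4.3.3 (variance trend, no covariates), over all genes with at least 1 CPM in at least 2 pools. Intervals are 95% intervals of that fit, and calls were made at a Benjamini-Hochberg adjusted p of 0.05 over all genes. Count tests on the recovered reads (edgeR 4.0.16, DESeq2 1.42.0) were alternatives. The main limma fit, edgeR's quasi-likelihood and exact tests and DESeq2 were also run on simulated reads with known changes. Those changes were much larger than the members' log2 fold changes. The simulation therefore does not show how often changes as small as theirs would be found. The labels describe separate pools of hearts. The limma p-values rest on the spread between pools, with that of each gene drawn towards the trend over all genes. The other alternatives were pseudocounts of 0.1 and 1, other filters, no variance trend, other scalings, a replicate block by pool number, and fits that omit a pool.

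The members and the gene lists were chosen with earlier results of these data known. Named are the 9 members, the genes of the replication, mitosis and cell type lists whose identifiers could be paired with a symbol, *Pcna-ps2*, *Bmp2*, and the 3 genes with the profile nearest to the members. Symbols of the members come from the rule that chose them, positions from the RefSeq table of GRCm38.p6, and other symbols from the supplementary gene list of the study, which pairs 406 identifiers. Promoter and protein sequences were not used here.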

Additional observations from a re-analysis of the deposited data

How the results depend on the processing

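Over 17 alternative fits, and the sum of *Pcna* and its copy, none of the 9 members passed the adjusted threshold. Of the 154 values, 151 kept their direction; the exceptions were *Mcm2* at 0.017 with the pool number as a replicate block and without transgenic pool 3, and *Pcna* at -0.0048 without transgenic pool 2. With each pool left out in turn, *Mcm2* ran from -0.080 to 0.017 and *Pcna* from -0.0048 to 0.13. Asking in place of the adjusted threshold for an unadjusted limma p under 0.05 and pools that did not overlap gave 1 member, *Ccnb1*. The number of all genes called, 362, was 10 without the variance trend, 232 with DESeq2 and 655 with the block, and 43 to 464 with a pool left out. The 2 mitosis genes of the study's list became 0 without the variance trend, 4 with edgeR's exact test, 4 with the block, and 0 to 3 with a pool left out. The replication gene was not called (0 of 1) without the variance trend, with quantile normalization, with libraries rescaled to the same total, or with any pool left out (0 to 0); DESeq2 gave it no adjusted p. With a WT pool left out, fewer samples are fitted and the lone WT pool is assumed to vary like the transgenic pools. Causes of the other changes were not tested. The labels do not say that a pool number is shared between genotypes, and only 2 numbers are, so the pairing could not be checked; the block gave the same fold changes as leaving out transgenic pool 3. *Aurkb* had 314 to 446 reads a pool. Its chi-square per degree of freedom was 1.05 within the WT pools and 2.11 within the transgenic pools, where counting error alone gives about 1. How far depth limits its precision was not tested.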
